A study of Mus musculus with 12 samples.

Results

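The untreated state of a fibroblast line was compared between a pair of experiments: vehicle cultures collected on day 7 and vehicle cultures collected on day 6. The 6 vehicle libraries were taken by their labels from the 12 RNA-seq libraries of the series, 3 for each day. All 12 came from a single line of primary mouse mammary fibroblasts, grown out of mammary fat pad tissue taken from 1 healthy B6 animal. The series was made to profile fibroblasts driven into senescence by doxorubicin or hydrogen peroxide, and the vehicle cultures were its dividing controls.

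In the day 7 experiment, cultures at 50 to 60% confluence received water as vehicle for 24 h, alongside cultures that received 100 nM doxorubicin, and medium was renewed every 3 days. In the day 6 experiment, cultures at the same confluence received water for 2 h followed by 48 h of recovery, 3 times in all, alongside cultures that received 750 µM hydrogen peroxide. Both vehicle groups were split routinely so that the cells stayed sparse enough to divide. Day of collection, exposure schedule and experiment changed together, so their parts in any difference cannot be told apart. The line came from 1 animal, and the labels do not say whether the 3 libraries of a group were separate cultures. The p-values below therefore measure only the spread between libraries within groups, pooled over all 12 libraries, treated ones included.

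Fibroblasts in culture shift between several states. On stiff plastic and under TGF-beta they can take on a myofibroblast state, in which smooth muscle actin and its partners are assembled into stress fibres, a gene programme driven by serum response factor (SRF) and its MRTF cofactors through DNA motifs called CArG boxes. Dividing cells express DNA replication and mitosis genes under E2F and related factors, whereas crowded or growth-arrested fibroblasts lower both programmes and express growth arrest genes and more of the small proteoglycans that coat collagen fibrils. Cd34, Dpt and Ly6c1 mark fibroblasts of the adventitia and interstitium in many tissues.

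All values are in CPM, the reads of a gene scaled to 1000000 reads counted in the library. Differences are day 7 minus day 6 on the scale of log2(CPM + 1), so 1 unit is a doubling for a well-expressed gene and less than the true change for a gene of a few CPM. A gene was called changed at an adjusted p below 0.05 in limma, and "rose", "fell", "higher" and "lower" are used in that sense. Of 13280 genes tested, 3719 changed (28%), 2001 of them higher at day 7 (15.1% of genes tested) and 1718 lower (12.9%). The median difference of all tested genes was -0.02, and their quartiles lay at -0.29 and 0.23. Changes of at least 1 log2 unit were found for 450 genes (3.39%), 216 higher and 234 lower. No overlap between the 3 day 7 and the 3 day 6 values was seen for 3705 of the 3719 changed genes, and for 52.2% of all tested genes. Many genes named below were chosen for a small adjusted p or a large change. Closeness within a day and separation between days were built into that choice and add no further support.

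The 6 libraries held 17303102 to 21936325 counted reads, inferred from the CPM that 1 read was worth. Correlations between libraries were 0.986 to 0.996 within day 7, 0.988 to 0.994 within day 6 and 0.952 to 0.984 between the groups. On the leading principal component, with 68.3% of the variance, the days separated, with scores of 21.0, 17.8 and 41.8 at day 7 and -37.0, -27.8 and -15.8 at day 6. Day 7 replicate 3 stood apart from its group: along the main direction of spread within groups it scored -26.7 against 12.4 and 14.3 for the other two. Day 6 replicate 1 lay at the opposite end, with 15.7 against -2.07 and -13.6. Without these 2 libraries 1696 genes changed, 909 higher and 787 lower. They were also the outermost library of each group on the leading component, and 2 libraries a group were left. Fewer calls were therefore built into this omission. Without day 7 replicate 3, doxorubicin replicate 1 and peroxide replicate 2, which stood apart in their groups, 4261 genes changed. List counts without the 2 end libraries are given below where they moved by more than 1.5 times.

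Of the 49 gene lists examined, the largest median difference was that of the contractile apparatus, the actins, myosins and actin-binding proteins of stress fibres. Of 25 tested members, 20 fell at day 7 and 0 rose, with a median difference of -1.20. The summed level of the 26 listed genes was 4615 to 4819 CPM at day 7 and 11573 to 12621 CPM at day 6. Without the 2 end libraries, 17 members were still called lower.

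Acta2 (ENSMUSG00000035783, chr19:34241090-34255590) encodes smooth muscle actin, the usual mark of myofibroblasts, and measured 866, 878 and 978 CPM at day 7 and 3899, 4477 and 4033 CPM at day 6. All 3 day 6 libraries lay well above all 3 day 7 libraries, with a difference of -2.19 ± 0.12 (SE, adjusted p = 1.05e-06). Cnn1 (ENSMUSG00000001349, chr9:22099216-22109630), the actin-binding protein calponin of smooth muscle, measured 2.66, 3.83 and 2.67 CPM at day 7 and 66.4, 81.04 and 61.5 CPM at day 6. Its mean was 22.8-fold higher at day 6, and its difference of -4.13 ± 0.18 (SE, adjusted p = 2.52e-07) was the largest decrease among the genes named here.

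Actg2 (chr6:83512905-83536265), the enteric smooth muscle actin, measured 47.8, 42.9 and 48.9 CPM at day 7 and 308, 350.1 and 297 CPM at day 6, a difference of -2.75 ± 0.12 (SE, adjusted p = 2.52e-07). Tagln (ENSMUSG00000032085, chr9:45929619-45936058), the actin-crosslinking protein transgelin, measured 127, 138 and 133 CPM at day 7 and 705, 803 and 708 CPM at day 6, a difference of -2.47 ± 0.12 (SE, adjusted p = 4.37e-07). Myl9, the regulatory light chain of smooth muscle myosin, measured 104, 99.4 and 117 CPM at day 7 and 459, 516 and 447 CPM at day 6, a difference of -2.14 ± 0.14 (SE, adjusted p = 3.55e-06). In each of these 3 genes the libraries of a day agreed closely, and every day 6 library exceeded every day 7 library. Of 50-base stretches of their exons, 0% were shared with another gene for Actg2, 0% for Acta2 and 0% for Tagln.

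Of the other tested members of the list 15 fell and 5 did not pass, and those that follow were chosen after their values were seen. The tropomyosins, which coil along actin filaments, fell by 1.16 (Tpm1), 1.25 (Tpm2) and 1.61 (Tpm4) on the log2 scale, and Tpm4 was at -1.03 (adjusted p = 0.0829) without the 2 end libraries. Focal adhesion proteins that tie filaments to integrins fell too: Vcl, vinculin, with 34.7, 32.6 and 21.2 CPM at day 7 and 141, 82.5 and 63.6 CPM at day 6, changed by -1.62 ± 0.32 (SE, adjusted p = 0.00334), and Actn1, an alpha-actinin, by -1.17 ± 0.16 (SE, adjusted p = 0.000338). Lmod1, which nucleates actin in smooth muscle, changed by -1.30 ± 0.13 (SE, adjusted p = 6.00e-05), and Myh11, the smooth muscle myosin heavy chain, by -1.53 ± 0.12 (SE, adjusted p = 7.78e-06). Cald1, caldesmon, showed the smallest called change of the list at -0.43 ± 0.05 (SE, adjusted p = 0.000167). The 5 members that did not pass the test were Smtn (-1.18), Synpo2 (-0.37), Itga1 (-0.28), Zyx (-0.30) and Des. Des, the muscle intermediate filament desmin, was low in every library at 4.05, 3.78 and 2.62 CPM at day 7 and 3.18, 2.38 and 3.24 CPM at day 6, and these groups overlapped.

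**Figure D1:**
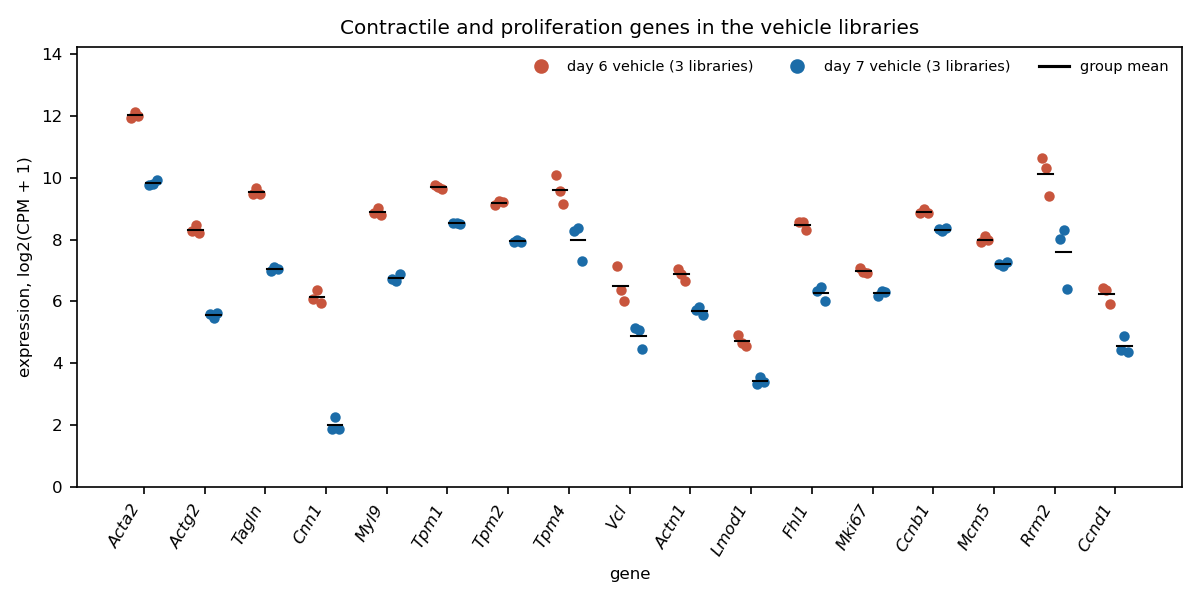
Expression of contractile genes (Acta2 to Fhl1) and of proliferation genes (Mki67 to Ccnd1) in the 6 vehicle libraries, in log2(CPM + 1); each point is 1 library and each black line the mean of 3. Day 6 lies above day 7 for all 17 genes without overlap, and the gap is widest for Cnn1 and narrowest among the proliferation genes Mki67, Ccnb1 and Mcm5.

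Upstream sequences are shown for 3 actin-related genes that fell at day 7 and carry the SRF motif near their start. A CArG box, searched on both strands, was found in the 250 bases before the start of 9 of the 30 contractile and SRF-related genes with an entry (Acta1, Actc1, Actg1, Cnn2, Fhl1, Fhl2, Myl9, Srf and Vcl). Of all 32851 RefSeq promoters of the same length 1.47% held one, and of the 27025 genes they belong to 1.62% had one in at least 1 promoter. The genes were listed in part for their ties to SRF, so their share is not a test against that of all promoters. Acta2 and Cnn1 were not among the 9, and Tagln and Actg2 had no entry and were not searched. The 250 bases below are from RefSeq on GRCm38.p6, written 5′ to 3′ on the gene's strand, with the CArG box in capitals: Myl9 at chr2:156775214-156775463 (plus strand), Vcl at chr14:20929148-20929397 (plus strand) and Fhl1 at chrX:56779433-56779682 (plus strand).
Myl9: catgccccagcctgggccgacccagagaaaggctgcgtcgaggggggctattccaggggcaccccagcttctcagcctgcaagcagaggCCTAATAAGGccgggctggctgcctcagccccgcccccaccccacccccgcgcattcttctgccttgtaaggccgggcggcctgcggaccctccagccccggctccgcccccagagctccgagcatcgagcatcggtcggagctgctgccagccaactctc
Vcl: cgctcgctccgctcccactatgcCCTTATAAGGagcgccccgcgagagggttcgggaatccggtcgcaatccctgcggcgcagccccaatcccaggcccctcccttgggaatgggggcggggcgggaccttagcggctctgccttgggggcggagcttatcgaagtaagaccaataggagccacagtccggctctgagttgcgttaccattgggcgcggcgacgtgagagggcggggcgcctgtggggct
Fhl1: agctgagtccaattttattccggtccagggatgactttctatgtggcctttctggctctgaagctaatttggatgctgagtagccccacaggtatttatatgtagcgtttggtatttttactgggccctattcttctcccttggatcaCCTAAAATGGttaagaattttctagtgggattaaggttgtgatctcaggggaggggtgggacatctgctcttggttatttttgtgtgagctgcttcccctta
The box began 161 bases before the Myl9 start, 227 before the Vcl start and 102 before the Fhl1 start. A match describes the letters of this window only.

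In a list of SRF, its cofactors and related genes such as Fhl1 and Actb, 3 of 8 tested members fell and 0 rose (median -0.67). Fhl1, a LIM protein of striated and smooth muscle, measured 80.3, 86.8 and 64.3 CPM at day 7 and 381, 375 and 315 CPM at day 6, a difference of -2.20 ± 0.11 (SE, adjusted p = 6.15e-07). Actb, the cytoplasmic beta actin often used as a reference gene, measured 15636, 16377 and 14857 CPM at day 7 and 27953, 27050.3 and 24442 CPM at day 6. It fell by 0.76 ± 0.19 (SE) on the log2 scale with an adjusted p of 0.0128, and this call was lost without the 2 end libraries. Mrtfa, an MRTF cofactor chosen after its value was seen, changed by -0.83 ± 0.26 (SE, adjusted p = 0.0362), a call lost without any 1 of the 6 libraries (adjusted p from 0.0513 to 0.13), whereas Srf itself did not pass (-0.56, adjusted p = 0.259).

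Targets of YAP and TAZ, the cofactors that read cell spreading and crowding, were also mostly lower: 11 of 18 fell, 1 rose, and the median was -0.43. Without the 2 end libraries 4 were called lower. Ccn2, the connective tissue growth factor, measured 2.84, 3.23 and 2.76 CPM at day 7 and 7.86, 8.62 and 7.34 CPM at day 6, a difference of -1.18 ± 0.10 (SE, adjusted p = 2.24e-05). Crim1, a membrane protein that binds growth factors, measured 19.4, 20.5 and 19.1 CPM at day 7 and 46.3, 43.9 and 37.8 CPM at day 6, a difference of -1.07 ± 0.08 (SE, adjusted p = 9.58e-06). Both genes were higher in every day 6 library than in any day 7 library. Amotl1, a member of the same pathway chosen after its value was seen, rose by 0.38 ± 0.07 (SE, adjusted p = 0.00219) and was at 0.31 (adjusted p = 0.0519) without the 2 end libraries.

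TGF-beta genes did not change one way: 3 of 17 rose and 4 fell (median -0.18). Ltbp1, which stores latent TGF-beta in the matrix, measured 2.42, 2.32 and 1.85 CPM at day 7 and 11.9, 13.7 and 12.9 CPM at day 6, a difference of -2.12 ± 0.14 (SE, adjusted p = 2.96e-06). Inhba, which forms activin A, measured 27.1, 30.4 and 24.7 CPM at day 7 and 71.5, 76.6 and 68.8 CPM at day 6, a difference of -1.37 ± 0.10 (SE, adjusted p = 4.40e-06). Both were higher at day 6 in every library, whereas the receptors Tgfbr2 (0.75 ± 0.09 SE, adjusted p = 0.000169) and Tgfbr3 (0.59 ± 0.09 SE, adjusted p = 0.00074), chosen after their values were seen, rose at day 7.

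Both groups expressed the genes of cell division, and day 7 expressed them at a lower level. Of 42 DNA replication genes, 39 fell and 0 rose (median -0.73), and their sum was 2628 to 2946 CPM at day 7 against 4855 to 5855 CPM at day 6. Of 40 mitosis genes, 34 fell and 0 rose (median -0.57), with sums of 3503 to 3612 CPM and 5203 to 5435 CPM. All 42 replication genes and all 40 mitosis genes had a negative difference. Without the 2 end libraries 27 replication genes and 20 mitosis genes were called lower.

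Mki67, the proliferation antigen Ki-67, measured 70.8, 80.1 and 78.8 CPM at day 7 and 133, 122 and 121 CPM at day 6, a difference of -0.70 ± 0.08 (SE, adjusted p = 0.000154). Ccnb1, the mitotic cyclin B1, measured 319.9, 308 and 331 CPM at day 7 and 466, 504 and 464 CPM at day 6, a difference of -0.58 ± 0.06 (SE, adjusted p = 9.59e-05), and of its 50-base exon stretches 42.2% were shared with another gene, mostly a pseudogene. Cdk1, the kinase it activates, measured 173, 172 and 175 CPM at day 7 and 294, 309 and 281 CPM at day 6, a difference of -0.76 ± 0.07 (SE, adjusted p = 2.85e-05). For these 3 genes every day 7 library lay below every day 6 library.

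In replication, Mcm5, a subunit of the MCM helicase, measured 147, 139.8 and 154 CPM at day 7 and 239.5, 274 and 254 CPM at day 6, a difference of -0.79 ± 0.12 (SE, adjusted p = 0.000875). Cdc6, which loads that helicase on origins, measured 25.95, 30.3 and 28.01 CPM at day 7 and 65.4, 66.2 and 65.7 CPM at day 6, a difference of -1.20 ± 0.11 (SE, adjusted p = 3.21e-05), and its 3 day 6 values were nearly equal. Mcm10, which activates the helicase, measured 26.9, 26.5 and 31.4 CPM at day 7 and 52.9, 53.98 and 56.4 CPM at day 6, a difference of -0.92 ± 0.09 (SE, adjusted p = 3.24e-05). Rrm2, the inducible subunit of ribonucleotide reductase, measured 261, 318 and 83.8 CPM at day 7 and 1586, 1257 and 684 CPM at day 6, and its libraries spread widely within each day. Its difference was -2.53 ± 0.56 (SE, adjusted p = 0.00642), and without the 2 end libraries it was -1.68 (adjusted p = 0.0741).

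Letters of the E2F motif, TTTGGCGC or TTTCGCGC on either strand, were found in the 250 bases before the start of 6 of 34 replication genes with an entry (Mcm5, Mcm6, Orc1, Pola1, Rfc3 and Uhrf1) and of 1 of 35 mitosis genes (Cdk1). Of all promoters 0.654% held them, and of all genes with a promoter 0.759%. Replication and mitosis genes were tied to E2F beforehand, so their shares are not a test against that of all promoters. A pair of helicase genes with matches on both strands is shown, from RefSeq on GRCm38.p6, with the motif letters in capitals: Mcm5 at chr8:75109259-75109508 (plus strand) and Mcm6 at chr1:128359706-128359955 (minus strand).
Mcm5: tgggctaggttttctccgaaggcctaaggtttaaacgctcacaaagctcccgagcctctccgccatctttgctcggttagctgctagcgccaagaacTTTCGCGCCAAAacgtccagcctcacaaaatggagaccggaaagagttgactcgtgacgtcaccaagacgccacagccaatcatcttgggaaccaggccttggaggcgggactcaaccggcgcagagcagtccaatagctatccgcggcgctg
Mcm6: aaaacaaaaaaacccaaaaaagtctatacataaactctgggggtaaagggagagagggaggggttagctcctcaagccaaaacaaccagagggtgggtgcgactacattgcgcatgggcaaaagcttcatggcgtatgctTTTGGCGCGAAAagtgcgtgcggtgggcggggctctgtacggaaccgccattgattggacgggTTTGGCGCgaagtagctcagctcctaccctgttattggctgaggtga
In Mcm5 2 matches overlap, the first starting 153 bases before the gene start; in Mcm6 there are 3, of which 2 overlap from base 110 and the other begins at base 47. Mcm6, named here for its sequence, changed by -0.70 ± 0.09 (SE, adjusted p = 0.000188).

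Genes of the G1 phase followed: 11 of 18 fell and 1 rose (median -0.68), with 7 called lower without the 2 end libraries. Ccnd1, cyclin D1, which links growth signals to the cycle, measured 20.8, 28.6 and 19.6 CPM at day 7 and 85.4, 80.97 and 59.2 CPM at day 6, a difference of -1.67 ± 0.24 (SE, adjusted p = 0.000547). Ccne1 and Ccne2, the E cyclins of S phase entry, differed by -0.90 ± 0.09 (SE, adjusted p = 4.72e-05) and -0.98 ± 0.13 (SE, adjusted p = 0.000289). The member that rose was Rbl2 (p130), the RB relative that represses cycle genes in resting cells (0.58 ± 0.10 SE, adjusted p = 0.00145), named after its value was seen. E2f1 (0.25), Rb1 (0.03) and Cdk4 (-0.10) did not pass the test.

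Genes known from resting or growth-arrested cells were higher at day 7: 11 of 16 rose and 1 fell, with a median of 0.55. Pdcd4, an inhibitor of translation, measured 106, 112 and 110.1 CPM at day 7 and 43.2, 33.4 and 42.2 CPM at day 6, a difference of 1.45 ± 0.16 (SE, adjusted p = 0.000119). Klf4, a growth-restraining transcription factor, measured 86.8, 94.04 and 93.6 CPM at day 7 and 47.02, 38.1 and 45.9 CPM at day 6, a difference of 1.05 ± 0.09 (SE, adjusted p = 1.83e-05). Btg1, an antiproliferative cofactor, measured 167, 176 and 162 CPM at day 7 and 95.5, 95.5 and 89.4 CPM at day 6, a difference of 0.84 ± 0.08 (SE, adjusted p = 2.52e-05). Each was higher at day 7 in every library. The member that fell was Gas6 (-0.87 ± 0.14 SE, adjusted p = 0.000938), a ligand of TAM receptors, named after its value was seen.

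Of 5 tested inhibitors of cyclin-dependent kinases, 1 changed. Cdkn2c, p18, an inhibitor of CDK4 and CDK6, measured 29.5, 30.3 and 28.4 CPM at day 7 and 9.49, 9.62 and 10.7 CPM at day 6, a difference of 1.47 ± 0.12 (SE, adjusted p = 1.57e-05). Cdkn1a, p21, measured 245, 240.1 and 139.9 CPM at day 7 and 233, 251 and 254 CPM at day 6; the groups overlapped and the difference of -0.28 did not pass (adjusted p = 0.437). Cdkn2a and Cdkn2b were listed at 0 in all 6 libraries. Among 24 p53 targets 7 fell and 1 rose (median -0.27), and 11 fell with array weights. Mdm2, the ubiquitin ligase that restrains p53, measured 39.8, 38.7 and 36.6 CPM at day 7 and 81.02, 72.8 and 76.5 CPM at day 6, a difference of -0.98 ± 0.09 (SE, adjusted p = 2.88e-05). Aen, a nuclease induced by p53, differed by -0.81 ± 0.09 (SE, adjusted p = 9.34e-05), and Ddit4l, an mTOR inhibitor, by -1.20 ± 0.18 (SE, adjusted p = 0.000723).

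**Figure D2:**
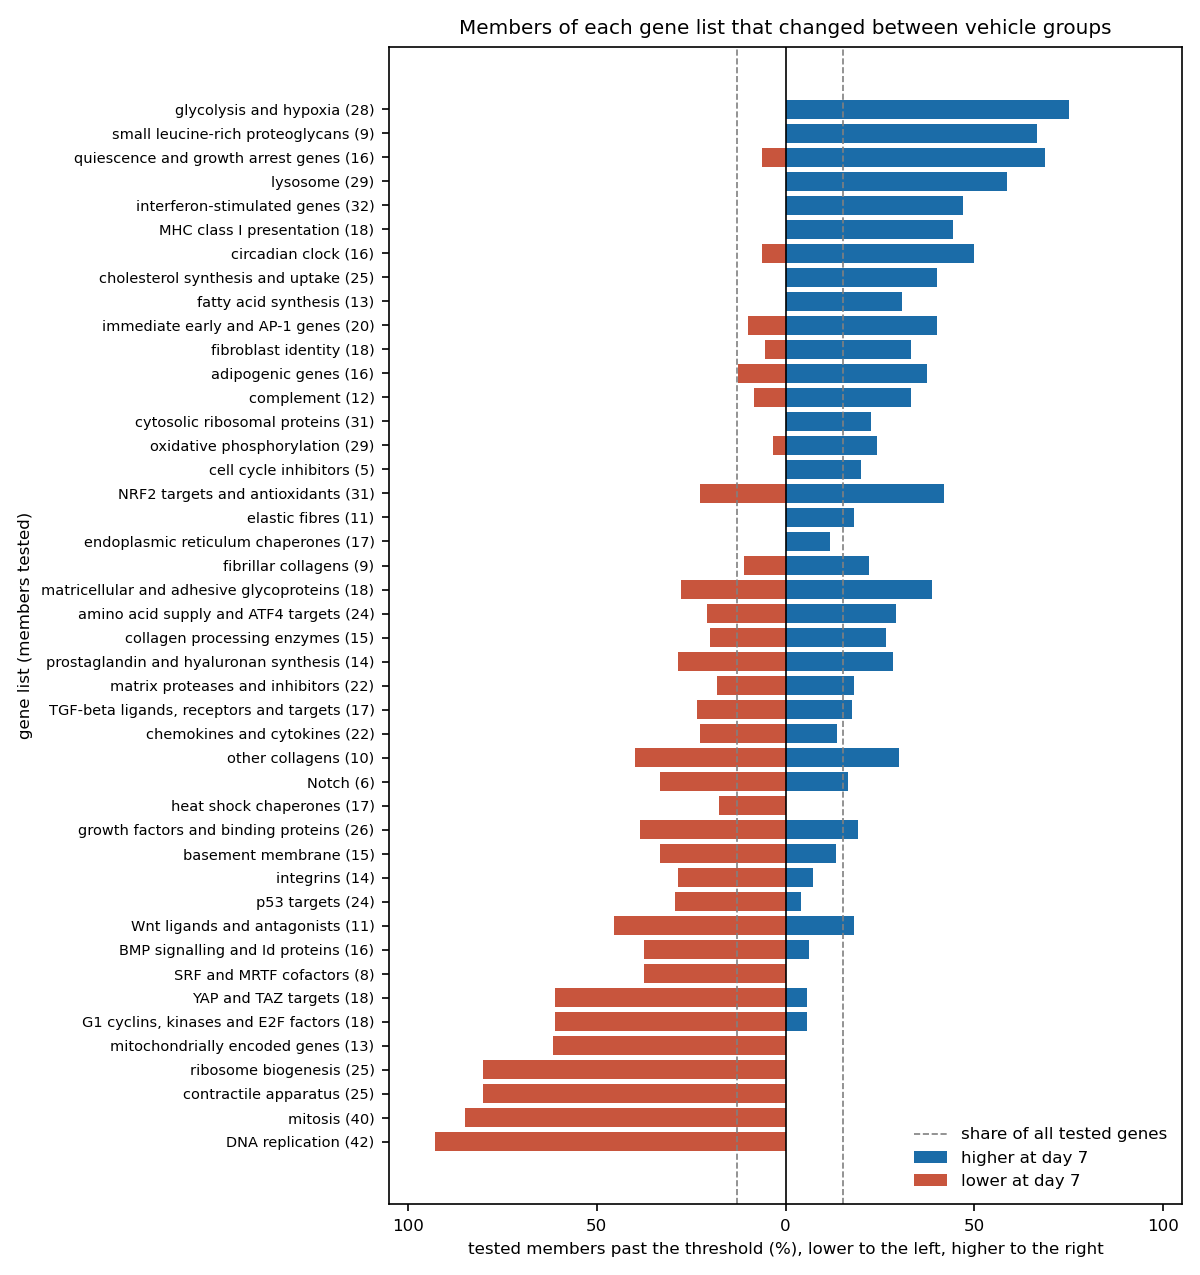
Share of the tested members of each gene list that was called higher (right, blue) or lower (left, red) at day 7, in percent, with the number of members tested in brackets; dashed lines mark the 15.1% and 12.9% of all tested genes. Replication, mitosis, contractile and ribosome biogenesis lists extend far to the left, and glycolysis, small proteoglycans, growth arrest and lysosome lists far to the right.

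The matrix genes divided. Small leucine-rich proteoglycans, which bind collagen fibrils and growth factors, rose in 6 of 9 tested members and fell in 0 (median 0.51), and 3 rose without the 2 end libraries. A further member was at -1.60 without being called. The sums of the 11 listed genes overlapped, at 4351.5 to 4900 CPM at day 7 and 4097 to 4499 CPM at day 6. Dcn (ENSMUSG00000019929, chr10:97479609-97518143), decorin, measured 165, 152 and 182 CPM at day 7 and 17.4, 14.6 and 20.7 CPM at day 6. Its mean was 9.45-fold higher at day 7, without overlap, a difference of 3.18 ± 0.11 (SE, adjusted p = 1.26e-07). Ogn, osteoglycin, measured 53.6, 46.4 and 58.8 CPM at day 7 and 13.5, 11.7 and 18.3 CPM at day 6, a difference of 1.82 ± 0.17 (SE, adjusted p = 2.72e-05). Lum, Prelp, Aspn and Omd, chosen after their values were seen, rose by 0.80, 0.50, 0.51 and 0.74 on the log2 scale. The Prelp call was lost without day 7 replicate 1 or 3 or day 6 replicate 2 (adjusted p = 0.0783 to 0.0997). That of Aspn was lost without day 7 replicate 1 or 2 or day 6 replicate 2 (adjusted p = 0.0526 to 0.0823) and that of Omd without day 7 replicate 3 (adjusted p = 0.0531). Without the 2 end libraries Lum was at 0.80 (adjusted p = 0.0567), and Prelp and Omd were not called either. Over all settings the difference of Lum ran from 0.47 to 3.47, so its size depended on the setting.

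Col1a1, the main chain of type I collagen, measured 2364, 2463 and 2403 CPM at day 7 and 2709, 2197 and 2406 CPM at day 6, and its difference was -0.01 ± 0.15 (SE, adjusted p = 0.964). Col3a1, the chain of type III collagen found with type I in soft tissue, measured 894, 775 and 729 CPM at day 7 and 286, 266 and 344 CPM at day 6, a difference of 1.42 ± 0.15 (SE, adjusted p = 5.56e-05). Of 9 fibrillar collagens tested, 2 rose and 1 fell (median 0.08), the last being the low-level Col27a1 (-0.78 ± 0.16 SE, adjusted p = 0.00453). Of 10 other collagens, 3 rose and 4 fell (median 0.30). Col8a1, a short-chain collagen of vessel walls and injury, measured 35.5, 32.6 and 32.01 CPM at day 7 and 111, 119 and 106 CPM at day 6, a difference of -1.72 ± 0.10 (SE, adjusted p = 1.31e-06), and Col12a1, which lies along fibrils under tension, differed by -1.04 ± 0.08 (SE, adjusted p = 7.52e-06).

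Adhesive and matricellular glycoproteins moved both ways, 7 of 18 higher and 5 lower (median 0.15). Tnc, tenascin-C, a glycoprotein of wounds and tumour stroma, measured 27.3, 27.9 and 30.7 CPM at day 7 and 123, 124 and 124 CPM at day 6, a difference of -2.08 ± 0.08 (SE, adjusted p = 1.26e-07). Thbs1, thrombospondin-1, which can activate TGF-beta, measured 522, 558 and 584 CPM at day 7 and 1313, 1219.7 and 1267 CPM at day 6, a difference of -1.19 ± 0.08 (SE, adjusted p = 4.40e-06). Postn, periostin, went the other way with 2171, 2179.8 and 2438 CPM at day 7 and 1460.0, 1429.6 and 1718 CPM at day 6, a difference of 0.56 ± 0.08 (SE, adjusted p = 0.000588). Fn1, fibronectin, measured 990.3, 1015 and 994 CPM at day 7 and 969, 911 and 1026 CPM at day 6 and did not pass the test (0.05, adjusted p = 0.596).

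Basement membrane genes fell in 5 and rose in 2 of 15 (median -0.18), with 2 lower without the 2 end libraries and 3 without day 7 replicate 1 or day 6 replicate 2. Col4a1, a chain of type IV collagen, differed by -0.76 ± 0.10 (SE, adjusted p = 0.000367), and Lama4, a laminin chain of mesenchymal cells, by 1.16 ± 0.10 (SE, adjusted p = 2.57e-05). Of 11 elastic fibre genes 2 rose and 0 fell (median 0.07), Mfap2 by 0.95 ± 0.14 (SE, adjusted p = 0.000706) and Fbn2 by 0.997 ± 0.17 (SE, adjusted p = 0.0012). Collagen processing enzymes rose in 4 and fell in 3 of 15 (median -0.07). Plod1, a lysyl hydroxylase that prepares collagen for crosslinking, measured 905, 847 and 989 CPM at day 7 and 315, 322 and 356 CPM at day 6, a difference of 1.46 ± 0.12 (SE, adjusted p = 1.72e-05). Loxl3, a lysyl oxidase, differed by -1.10 ± 0.13 (SE, adjusted p = 0.000119), and Lox did not pass (-0.10, adjusted p = 0.388). Of 22 proteases and inhibitors 4 rose and 4 fell (median 0.05), with Ctsk, the collagen-degrading cathepsin K, at 0.88 ± 0.09 (SE, adjusted p = 7.03e-05). Mmp3, stromelysin, was listed at 0 in all 6 vehicle libraries, where 3 reads would have been 0.137 to 0.173 CPM.

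The fibroblast markers listed for the line were largely present. Pdgfra, the PDGF receptor of fibroblasts, measured 36.7, 36.5 and 40.3 CPM at day 7 and 36.4, 36.04 and 33.9 CPM at day 6 and did not differ beyond the spread (0.09, adjusted p = 0.42). Of 18 tested members 6 rose, 1 fell and 11 did not pass (median 0.09), with 12 positive and 6 negative differences. The genes named next were picked from those that changed and do not stand for the list. Cd34, a sialomucin of stromal progenitors, measured 44.9, 39.9 and 47.1 CPM at day 7 and 4.95, 6.05 and 7.98 CPM at day 6, a difference of 2.64 ± 0.15 (SE, adjusted p = 1.10e-06). Dpt, dermatopontin, of universal fibroblasts, measured 406, 409.9 and 450.3 CPM at day 7 and 125, 134 and 166 CPM at day 6, a difference of 1.58 ± 0.11 (SE, adjusted p = 3.38e-06). Ly6c1 (1.21 ± 0.10 SE, adjusted p = 1.49e-05), Pi16 (1.13 ± 0.24 SE, adjusted p = 0.00578) and Ly6a (0.87 ± 0.10 SE, adjusted p = 0.000152), surface markers of adventitial fibroblasts named after their values were seen, rose too, and 36.2% of the Ly6c1 stretches were shared with a paralog. The member that fell was Cd44, the hyaluronan receptor, with 145, 158 and 163 CPM at day 7 and 268, 271 and 278 CPM at day 6 and a difference of -0.81 ± 0.06 (SE, adjusted p = 1.22e-05).

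Markers of other cell types were mostly absent. Of 16 epithelial markers 3 could be tested and 7 were at 0 in all 6 libraries, including Krt8, Krt18 and Krt14; the list's sum of 126 to 189 CPM at day 7 and 170 to 184 CPM at day 6 was nearly all Krt19 (184, 181 and 121 CPM at day 7 and 168, 181 and 181 CPM at day 6). Endothelial markers summed to 18.3 to 21.0 CPM and 10.1 to 14.7 CPM, with 3 of 12 tested and Cdh5, Tie1, Cldn5 and Erg at 0. Tek, an angiopoietin receptor, rose (0.82 ± 0.18 SE, adjusted p = 0.00541). Leukocyte markers summed to 15.4 to 23.7 CPM and 20.5 to 21.8 CPM, with 4 of 16 tested; Itgam, Cd3e, Nkg7, C1qa and C1qb were at 0 in every library and Ptprc in all but one. Csf1r fell (-0.66 ± 0.14 SE, adjusted p = 0.00429) and Cd68 rose (0.69 ± 0.18 SE, adjusted p = 0.0141), the latter call being lost without day 7 replicate 3 or day 6 replicate 2 (adjusted p = 0.0571 to 0.0588). Of the epithelial list, Esr1, the oestrogen receptor, rose (0.88 ± 0.10 SE, adjusted p = 0.000145) and Krt7 fell (-0.69 ± 0.16 SE, adjusted p = 0.00827).

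Of 12 markers of pericytes and Schwann cells, 7 were tested, 1 rose and 2 fell. Mcam, an adhesion molecule of pericytes and smooth muscle, measured 0.444, 0.775 and 0.205 CPM at day 7 and 5.06, 6.43 and 5.14 CPM at day 6, a difference of -2.16 ± 0.17 (SE, adjusted p = 8.91e-06). Cspg4 (NG2), the proteoglycan of pericytes, chosen after its value was seen, measured 7.60, 9.85 and 5.69 CPM at day 7 and 20.2, 16.7 and 18.1 CPM at day 6, a difference of -1.18 ± 0.17 (SE, adjusted p = 0.00062). S100b went the other way (0.91 ± 0.11 SE, adjusted p = 0.000162). The list's sums, 31.3 to 40.2 CPM at day 7 and 38.5 to 40.9 CPM at day 6, overlapped, Kcnj8 and Sox10 were at 0, and Abcc9 was above 0 in 1 library. The part of other cells in the contractile difference was not tested. A smaller share of contractile cells and less contractile RNA in each cell cannot be told apart in these bulk libraries.

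Adipogenic genes rose in 6 and fell in 2 of 16 (median 0.44), with 3 higher without the 2 end libraries or without day 6 replicate 1 alone. Lpl, lipoprotein lipase, measured 2256, 2172 and 2384 CPM at day 7 and 947, 926 and 1123 CPM at day 6, a difference of 1.19 ± 0.08 (SE, adjusted p = 2.78e-06), a 2.27-fold higher mean at day 7. Pparg, the master factor of fat cells, went the other way with 53.9, 53.9 and 48.2 CPM at day 7 and 85.6, 92.05 and 79.2 CPM at day 6, a difference of -0.71 ± 0.09 (SE, adjusted p = 0.000167). Of 12 adipocyte markers 6 were tested, 2 rose and 0 fell. Adipoq, adiponectin, differed by 0.83 ± 0.21 (SE, adjusted p = 0.0123) at levels of 1.43, 0.775 and 1.39 CPM at day 7 and 0.0569, 0.334 and 0.289 CPM at day 6, a call lost without day 6 replicate 1 (adjusted p = 0.0529). Lep, Ucp1 and Pck1 were at 0 in every library. The sums of 61.6 to 90.2 CPM and 66.8 to 77.3 CPM overlapped.

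Glycolysis and hypoxia genes were higher at day 7 in 21 of 28 tested members and lower in 0 (median 0.60), and 14 rose without the 2 end libraries. Their sum was 42922 to 45256 CPM at day 7 and 28749.8 to 31801 CPM at day 6. Aldoc (chr11:78322968-78327781), a brain-type aldolase also made under low oxygen, measured 30.3, 28.7 and 32.3 CPM at day 7 and 1.82, 1.38 and 2.25 CPM at day 6, a difference of 3.49 ± 0.19 (SE, adjusted p = 8.00e-07), the largest increase among the genes named here. Bnip3, a hypoxia-induced mitophagy receptor, measured 799, 854 and 798 CPM at day 7 and 311, 322 and 348 CPM at day 6, a difference of 1.32 ± 0.07 (SE, adjusted p = 5.66e-07), and 21.6% of its exon stretches were shared with another gene. Chosen after their values were seen, Ndrg1 (1.47 ± 0.25 SE, adjusted p = 0.0013), Pgk1 (0.76 ± 0.08 SE, adjusted p = 6.58e-05), Tpi1 (0.74 ± 0.10 SE, adjusted p = 0.000388) and Pdk1 (0.90 ± 0.08 SE, adjusted p = 3.24e-05) span the stress, glycolytic and mitochondrial parts of that programme. Of the Pgk1 stretches 67.4% were shared with another gene. Vegfa (-0.03) and Hk2 (0.07) did not pass the test.

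Genes of ribosome biogenesis, the nucleolar factors that make and assemble ribosomes, fell in 20 of 25 members and rose in 0 (median -0.67). Nop56, a scaffold of snoRNA particles, measured 272, 284 and 297 CPM at day 7 and 536, 568 and 499.8 CPM at day 6, a difference of -0.91 ± 0.08 (SE, adjusted p = 1.83e-05). Dkc1, the pseudouridine synthase dyskerin, measured 100.0, 98.9 and 104 CPM at day 7 and 188, 184 and 185 CPM at day 6, a difference of -0.87 ± 0.06 (SE, adjusted p = 5.69e-06). All 3 libraries of each day lay close together. Myc, a driver of this programme and a member of the G1 list, did not pass (-1.34, adjusted p = 0.111). Ribosomal proteins themselves had 31 of 31 positive differences, of which 7 passed and 0 fell (median 0.21). Rps27 changed by 0.47 ± 0.08 (SE, adjusted p = 0.00159), and Rps19 by 0.36 ± 0.10 (SE, adjusted p = 0.0183). The count of 7 ran from 1 to 20 over all settings. It was 1 without the 2 end libraries, and 1 or 2 without day 7 replicate 1 or 3 or day 6 replicate 1 or 2. The call of Rps19 was lost without day 7 replicate 1 or 3 or day 6 replicate 1 (adjusted p = 0.0501 to 0.0732). Of the Rps27 stretches 26.98% were shared with another gene. Many of these genes share sequence with pseudogenes.

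In the mitochondrion, 8 of 13 genes of the organelle's own genome fell and 0 rose (median -0.40), with 2 called without the 2 end libraries. The count was 5 without day 7 replicate 1, 4 without day 6 replicate 1 or 3, and 4 with upper-quartile scaling or median centring. Exon stretches of many members were shared with other genes, 100% for mt-Co2 and 98.4% for mt-Atp6, against 0% for mt-Nd1 and mt-Cytb. mt-Cytb, cytochrome b, measured 1086, 1428 and 1350.1 CPM at day 7 and 2103, 1935 and 2039.9 CPM at day 6, a difference of -0.66 ± 0.11 (SE, adjusted p = 0.0012). Nuclear subunits of oxidative phosphorylation rose in 7 and fell in 1 of 29 (median 0.15), and 0 were called higher without the 2 end libraries, and 2 or 3 without day 7 replicate 1 or 3 or day 6 replicate 1 or 2. Ndufa1 of complex I changed by 0.45 ± 0.09 (SE, adjusted p = 0.00353), and Cycs, cytochrome c, by -0.45 ± 0.09 (SE, adjusted p = 0.00418), and 28.2% of the Cycs stretches were shared with another gene. Neither was called without the 2 end libraries, Ndufa1 at 0.36 (adjusted p = 0.0669) and Cycs at -0.40 (adjusted p = 0.066).

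Lysosomal genes rose in 17 and fell in 0 of 29 (median 0.41), and 10 rose without the 2 end libraries. Ctsl, cathepsin L, measured 1609, 1523 and 1683 CPM at day 7 and 852, 875 and 1011 CPM at day 6, a difference of 0.82 ± 0.08 (SE, adjusted p = 5.90e-05), and Tpp1, tripeptidyl peptidase, measured 357, 336 and 401 CPM at day 7 and 207, 216 and 236 CPM at day 6, a difference of 0.73 ± 0.10 (SE, adjusted p = 0.000339). Cholesterol synthesis genes rose in 10 and fell in 0 of 25 (median 0.27), with 4 without the 2 end libraries but 17 with the 6 vehicle libraries fitted alone or without the 3 libraries that stood apart in their groups (day 7 replicate 3, doxorubicin replicate 1 and peroxide replicate 2). Hmgcs1, which makes the HMG-CoA of that pathway, measured 621, 652 and 654 CPM at day 7 and 461, 437 and 477 CPM at day 6, a difference of 0.49 ± 0.06 (SE, adjusted p = 0.000317). Of 13 fatty acid synthesis genes 4 rose and 0 fell (median 0.03). Scd1, the stearoyl-CoA desaturase, measured 627, 680.1 and 686 CPM at day 7 and 343, 319 and 359.9 CPM at day 6, a difference of 0.96 ± 0.08 (SE, adjusted p = 1.47e-05), and Scd2 differed by 0.62 ± 0.08 (SE, adjusted p = 0.00031).

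**Figure D3:**
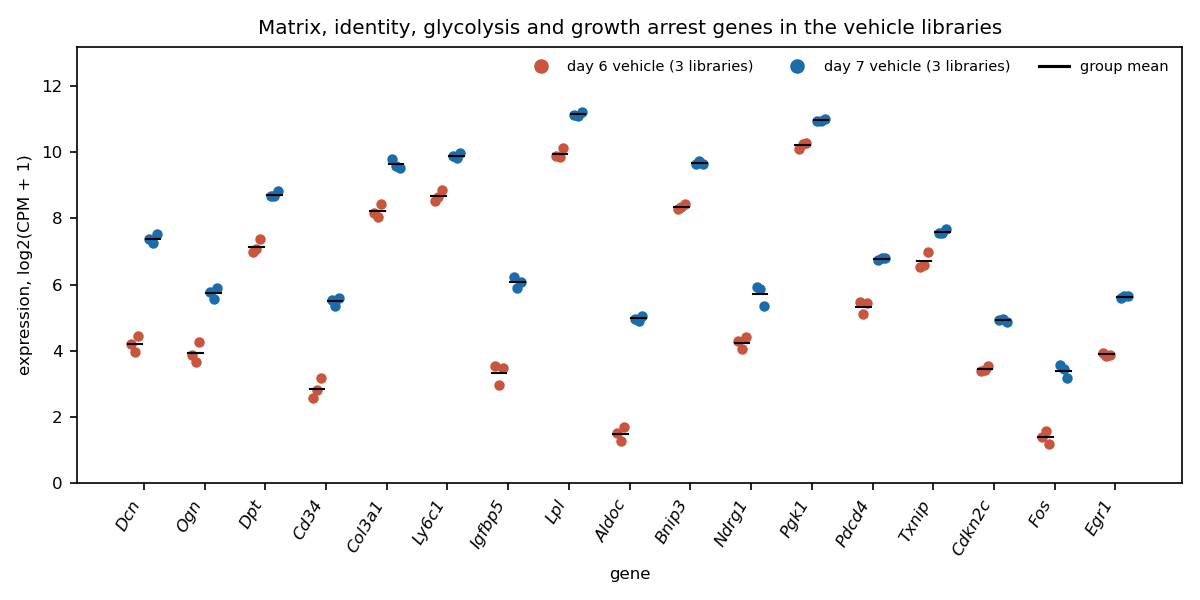
Expression of matrix and identity genes (Dcn to Lpl), glycolysis and hypoxia genes (Aldoc to Pgk1), growth arrest genes (Pdcd4 to Cdkn2c) and immediate early genes (Fos and Egr1) in the 6 vehicle libraries, in log2(CPM + 1); each point is 1 library and each black line the mean of 3. Day 7 lies above day 6 for all 17 genes without overlap, most for Aldoc and Dcn.

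Secreted signals moved both ways. Of 26 growth factors and binding proteins 10 fell and 5 rose (median -0.17), and 6 fell without either or both end libraries, without day 6 replicate 2 or with no filter on low values. Igfbp5, which binds insulin-like growth factors, went up, with 73.7, 58.8 and 66.9 CPM at day 7 and 10.7, 6.77 and 10.1 CPM at day 6 and a difference of 2.74 ± 0.17 (SE, adjusted p = 1.73e-06). Of 22 chemokines and cytokines 5 fell and 3 rose (median -0.09). The summed level of the 29 listed was nonetheless higher at day 7, with 2139 to 2283 CPM against 1907 to 2026 CPM at day 6. Ccl2, which draws monocytes, measured 82.6, 90.6 and 87.8 CPM at day 7 and 252, 262 and 226 CPM at day 6, a difference of -1.49 ± 0.09 (SE, adjusted p = 2.18e-06). Ccl8, a related monocyte chemokine, went the other way at a low level with 4.54, 4.88 and 5.13 CPM at day 7 and 0.853, 1.14 and 1.04 CPM at day 6, a difference of 1.54 ± 0.09 (SE, adjusted p = 1.68e-06). Il6 was under 2 CPM in every library and differed by -0.57 ± 0.17 (SE, adjusted p = 0.0275), a call lost without day 7 replicate 2 or 3 or day 6 replicate 1 or 2 (adjusted p = 0.0625 to 0.111).

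Among BMP signalling genes and Id proteins 6 of 16 fell and 1 rose (median -0.42). The summed level of the 20 listed genes went the other way, with 4577 to 4740 CPM at day 7 and 3834 to 3866 CPM at day 6. Fst, the activin inhibitor follistatin, measured 4.98, 4.47 and 4.51 CPM at day 7 and 13.6, 13.2 and 10.3 CPM at day 6, a difference of -1.24 ± 0.11 (SE, adjusted p = 1.77e-05), and Id4 differed by -1.17 ± 0.14 (SE, adjusted p = 0.000177). Immediate early and AP-1 genes, which answer serum within minutes, rose in 8 and fell in 2 of 20 (median 0.37). Egr1, a zinc finger factor, measured 47.4, 48.8 and 49.1 CPM at day 7 and 14.4, 13.3 and 13.6 CPM at day 6, a difference of 1.74 ± 0.08 (SE, adjusted p = 2.52e-07). Fos, an AP-1 subunit, measured 10.8, 9.94 and 8.05 CPM at day 7 and 1.59, 1.95 and 1.27 CPM at day 6, a difference of 2.02 ± 0.23 (SE, adjusted p = 0.000128). The members that fell were Fosl1 (-2.02 ± 0.40 SE, adjusted p = 0.00371) and Dusp6 (-1.41 ± 0.47 SE, adjusted p = 0.0461), both products of ERK signalling and named after their values were seen. Without the 2 end libraries Fosl1 was at -1.48 (adjusted p = 0.0579), and the Dusp6 call was lost without day 7 replicate 1, 2 or 3 or day 6 replicate 1 or 2 (adjusted p = 0.06 to 0.173).

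Interferon-stimulated genes were higher at day 7 in 15 of 32 and lower in 0 (median 0.66), with sums of 473 to 518 CPM against 322 to 343 CPM. Without the 2 end libraries 7 rose, and 8 with voom on estimated reads. Irf9, part of the ISGF3 factor, measured 33.8, 33.4 and 35.4 CPM at day 7 and 14.04, 14.97 and 16.6 CPM at day 6, a difference of 1.12 ± 0.12 (SE, adjusted p = 9.72e-05), and Irf7, which amplifies interferon production, measured 6.76, 5.11 and 4.57 CPM at day 7 and 0.967, 1.62 and 1.85 CPM at day 6, a difference of 1.39 ± 0.25 (SE, adjusted p = 0.00192). Isg15, a ubiquitin-like antiviral protein, measured 2.71, 2.28 and 2.82 CPM at day 7 and 1.08, 1.10 and 1.56 CPM at day 6, a difference of 0.69 ± 0.23 (SE, adjusted p = 0.0467) that was lost when any 1 of the 6 libraries was left out (adjusted p from 0.0536 to 0.13). Of 18 genes of MHC class I presentation 8 rose and 0 fell (median 0.46), 4 without the 2 end libraries. In that list 2 members had negative differences, down to -0.78. Its sums overlapped, at 1242 to 1425 CPM at day 7 and 1123 to 1605 CPM at day 6. Psme1, of the immune proteasome cap, measured 60.5, 64.3 and 68.7 CPM at day 7 and 33.1, 37.5 and 36.4 CPM at day 6, a difference of 0.84 ± 0.10 (SE, adjusted p = 0.000124). Of 12 complement genes 4 rose and 1 fell (median 0.34), with C1s1, the protease of the first component, at 199, 188 and 218 CPM at day 7 and 84.8, 77.7 and 95.6 CPM at day 6 and 1.22 ± 0.09 (SE, adjusted p = 4.18e-06), and 24.1% of its stretches shared with a paralog.

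Other genes among the 10 strongest changes each way belong to none of these lists. Anpep, the surface peptidase CD13 of stromal and myeloid cells, measured 54.96, 45.8 and 61.2 CPM at day 7 and 5.63, 5.38 and 5.95 CPM at day 6, a difference of 3.04 ± 0.12 (SE, adjusted p = 1.26e-07). Gas7, an F-BAR protein first found in growth-arrested cells, measured 53.7, 49.1 and 49.2 CPM at day 7 and 8.02, 6.81 and 9.13 CPM at day 6, a difference of 2.53 ± 0.10 (SE, adjusted p = 1.99e-07). Vsnl1, a neuronal calcium sensor, measured 16.7, 15.96 and 18.7 CPM at day 7 and 1.42, 2.05 and 2.37 CPM at day 6, a difference of 2.63 ± 0.13 (SE, adjusted p = 6.15e-07). Scara5, a ferritin receptor, measured 6.71, 6.11 and 8.67 CPM at day 7 and 0.227, 0.191 and 0.636 CPM at day 6, a difference of 2.60 ± 0.30 (SE, adjusted p = 0.000129), and Selenbp1 rose by 2.53 ± 0.21 (SE, adjusted p = 1.55e-05), with 50.9% of its exon stretches shared with Selenbp2. On the falling side, Ifi27l2b, an interferon-inducible family member, measured 0.641, 1.14 and 0.923 CPM at day 7 and 19.2, 18.7 and 15.4 CPM at day 6, a difference of -3.30 ± 0.15 (SE, adjusted p = 3.33e-07), opposite to the interferon list. Ptprz1, a receptor phosphatase, measured 2.52, 2.55 and 2.10 CPM at day 7 and 22.2, 18.9 and 16.99 CPM at day 6, a difference of -2.58 ± 0.15 (SE, adjusted p = 1.31e-06). Irf5, an interferon regulatory factor, measured 3.83, 5.34 and 3.89 CPM at day 7 and 37.5, 30.7 and 19.7 CPM at day 6, a difference of -2.47 ± 0.26 (SE, adjusted p = 7.44e-05), and Lce1g, a late cornified envelope gene, differed by -2.48 ± 0.34 (SE, adjusted p = 0.00036).

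Some of the strongest differences rested on libraries that spread widely, and these genes were singled out after their values were seen. Tnfrsf12a, the TWEAK receptor, measured 59.1, 71.02 and 9.59 CPM at day 7 and 284, 253 and 140.2 CPM at day 6, with day 7 replicate 3 far below the others. Its difference was -2.60 ± 0.73 (SE, adjusted p = 0.0219), and -1.52 (adjusted p = 0.177) without the 2 end libraries. The call was lost without day 7 replicate 3 or day 6 replicate 1 or 2 (adjusted p = 0.0687 to 0.0757). Id1, an inhibitor of basic helix-loop-helix factors, measured 2.86, 2.60 and 0.872 CPM at day 7 and 37.7, 10.7 and 6.88 CPM at day 6, a difference of -2.37 ± 0.75 (SE, adjusted p = 0.0369) that became -1.37 (adjusted p = 0.326). That call was lost without day 7 replicate 1, 2 or 3 or day 6 replicate 1 or 2 (adjusted p = 0.0638 to 0.145). Id3, its relative, measured 210.5, 221 and 30.9 CPM at day 7 and 445, 441 and 233 CPM at day 6 and did not pass at all (-1.65, adjusted p = 0.163).

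Bop1, a ribosome biogenesis factor, measured 12.3, 14.6 and 3.13 CPM at day 7 and 64.1, 34.8 and 20.2 CPM at day 6, and its difference of -1.95 ± 0.65 (SE, adjusted p = 0.0456) became -0.93 (adjusted p = 0.409). Its call was also lost without day 7 replicate 1 or 3 or day 6 replicate 1 or 2 (adjusted p = 0.0632 to 0.169). Gpx1, a glutathione peroxidase, measured 114, 113 and 33.4 CPM at day 7 and 325, 256 and 161 CPM at day 6, and its difference of -1.64 ± 0.52 (SE, adjusted p = 0.0371) became -0.84 (adjusted p = 0.319), and the call was lost without day 7 replicate 3 or day 6 replicate 1 or 2 (adjusted p = 0.101 to 0.132). Cdca8, a subunit of the chromosomal passenger complex, measured 22.5, 21.7 and 10.5 CPM at day 7 and 119, 53.6 and 35.5 CPM at day 6, and -1.76 ± 0.50 (SE, adjusted p = 0.0215) became -0.95 (adjusted p = 0.234), with the call lost without day 7 replicate 3 or day 6 replicate 1 (adjusted p = 0.0855 to 0.0872). Ndufa4l2, a hypoxia-induced mitochondrial protein, measured 44.3, 42.9 and 10.2 CPM at day 7 and 3.01, 2.62 and 3.24 CPM at day 6, a difference of 2.83 ± 0.66 (SE, adjusted p = 0.00865), and here the low replicate lay on the higher side, so that the difference without the 2 libraries was 3.51 (adjusted p = 0.0123). By contrast Cnn1 (-4.09, adjusted p = 3.95e-05), Acta2 (-2.28, adjusted p = 9.27e-05) and Dcn (3.11, adjusted p = 1.79e-05) differed by nearly as much without them.

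**Figure D4:**
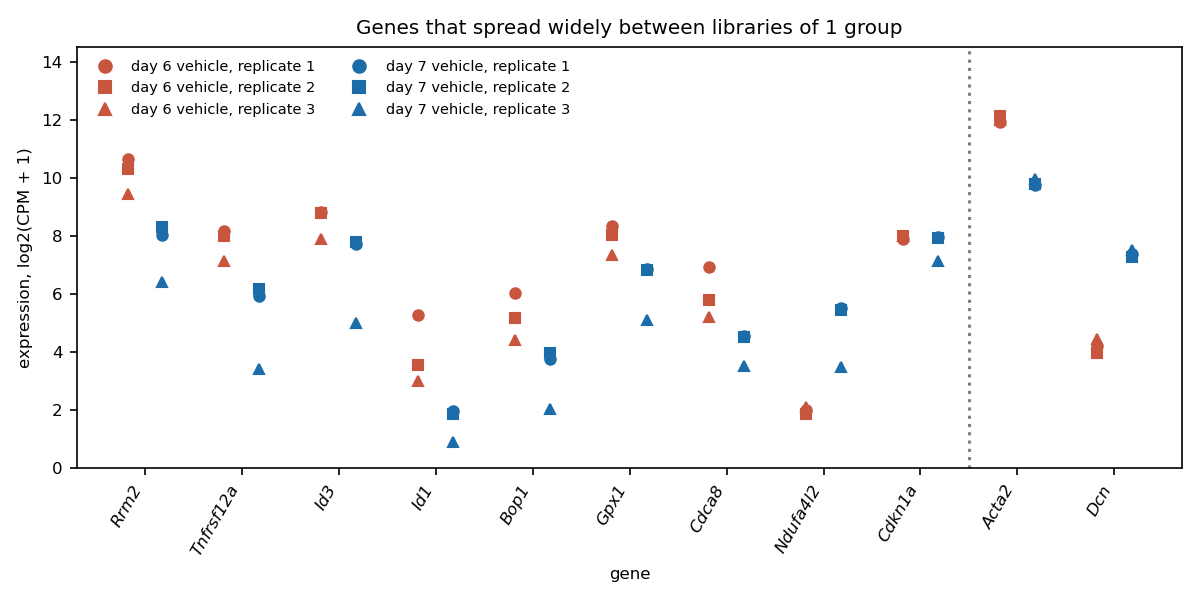
Expression in log2(CPM + 1) of 9 genes that spread widely between libraries of 1 group (left of the dotted line) and of Acta2 and Dcn, in the 6 vehicle libraries; marker shape gives the replicate. Day 7 replicate 3 (blue triangle) is the lowest day 7 library for all 9 genes, whereas Acta2 and Dcn agree closely within each day.

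The treated libraries of both experiments share no library with the vehicle comparison, though their treatments differ, so experiment and treatment cannot be told apart there. Doxorubicin minus peroxide changed 3646 of the 13280 genes (27.5%). Of these, 1349 had also changed between the vehicle groups, 722 in the same direction (19.4% of the vehicle list and 19.8% of the treated list) and 627 in the opposite direction. Across genes, which are not independent replicates, the correlation of both differences was -0.24.

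The contractile list was lower on the day 7 side in both: 11 members fell and 3 rose in treated cultures (median -0.28). Cnn1 differed there by -1.14 ± 0.18 (SE, adjusted p = 0.00176), Acta2 by -0.96 ± 0.12 (SE, adjusted p = 0.000426) and Actg2 by -0.98 ± 0.12 (SE, adjusted p = 0.000366), whereas Tagln (-0.26 ± 0.12 SE, adjusted p = 0.112) did not pass. Of the mitosis list 31 members were lower and 0 higher (median -0.81), and of the interferon list 30 were higher and 0 lower (median 1.34). The ribosome biogenesis list, which fell between vehicles, had 2 lower and 5 higher of 25 (median 0.14). Of the 28 glycolysis genes 6 were higher and 4 lower (median 0.07). The counts of both lists lie not far from the 27.5% of all tested genes that changed there. The share each way over all genes was not counted for the treated cultures. Dcn differed by 0.44 ± 0.11 (SE, adjusted p = 0.0164) and Cd34 by 0.90 ± 0.15 (SE, adjusted p = 0.00195), both higher on the day 7 side again. Igfbp5 (-0.76 ± 0.17 SE, adjusted p = 0.00815), Lpl (-0.58 ± 0.08 SE, adjusted p = 0.000588), Ccl2 (0.73 ± 0.09 SE, adjusted p = 0.000482) and Ccnd1 (1.08 ± 0.24 SE, adjusted p = 0.00948) had the opposite sign there.

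**Figure D5:**
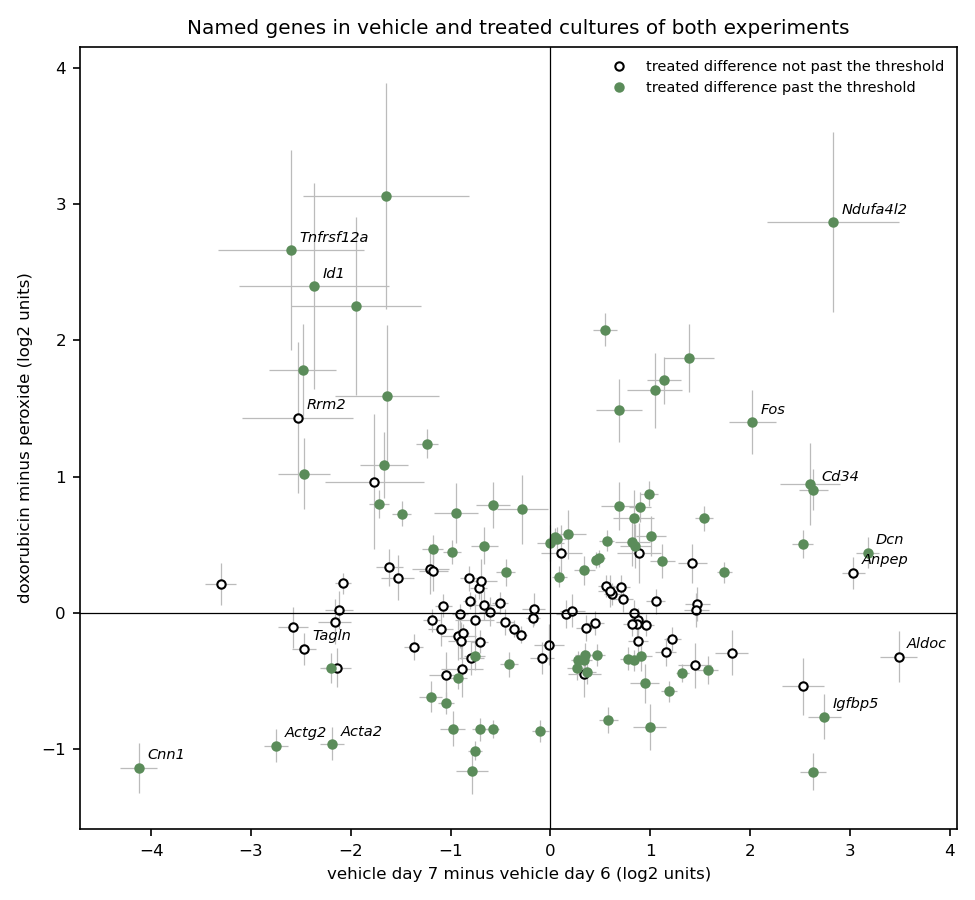
Differences of the named genes between vehicle day 7 and day 6 (horizontal) and between doxorubicin and peroxide (vertical), both in log2 units with SE bars; filled points passed the threshold in the treated comparison. Cnn1, Actg2 and Acta2 lie at lower left and Cd34, Fos and Dcn at upper right, while Tnfrsf12a and Id1 lie at upper left and Igfbp5 at lower right.

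Per kilobase of exon, the most abundant genes of the vehicle cultures were Actb, the ferritin chain Ftl1, the lectin Lgals1, mt-Co3 and the elongation factor Eef1a1. Their means over the 6 libraries were 7858, 5745, 5360.0, 5136 and 4204 CPM per kilobase. Of these 5, Actb fell and Ftl1 rose (0.34 ± 0.11 SE, adjusted p = 0.0325), and neither call held without the 2 end libraries. The Ftl1 call was also lost without day 7 replicate 1, 2 or 3 or day 6 replicate 1 or 2 (adjusted p = 0.0595 to 0.122). Sparc, the collagen-binding osteonectin, also stood among the 15 highest and did not pass (-0.17, adjusted p = 0.309). The exon stretches of mt-Co3 were 100% shared with other genes, those of Ftl1 79.3% and those of Eef1a1 58.9%, so their levels are uncertain.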

How the data were processed

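RNA of the cultures was sequenced on an Illumina sequencer, per the labels' protocols. The submitters' processing notes list the tools bcl2fastq and DRAGEN and the genome mm10. Not given in the sources used here are their versions, the way reads were counted, the strand setting and the annotation release. The deposited table holds CPM computed by the authors. Of its 55774 lines, 287 repeated a gene with equal values and were dropped, leaving 55487 genes, and each library then summed to 1000000. Values under 5 CPM were multiples of 0.01 read. In the 6 vehicle libraries 74.7 to 75.9% of values of up to 20 reads were whole reads (within 0.001 read), so no count model was used, and depth was inferred from the commonest small value, taken as 1 read.

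Symbols, exon lengths and positions came from GENCODE M21 (GRCm38), which held 99.4% of the genes. limma 3.58.1 in R 4.3.3 was fitted with a mean-variance trend on log2(CPM + 1) over all 12 libraries in 4 groups, two-sided, with Benjamini-Hochberg adjustment over the 13280 genes that reached 1 CPM in 3 or more libraries. The script was tested on simulated data, drawn independently for each gene and library. These lacked the shared direction of spread within groups seen here. The 49 gene lists and the genes named were chosen with earlier results of these data known. The rule for names took a panel of 26 genes, the 10 largest changes each way with at least 5 CPM and no overlap between groups, 2 called members of smallest adjusted p and that of largest difference in each list, and the 15 most abundant genes per kilobase; names outside it are marked. Exons were compared in 50-base windows at 10-base steps to find sequence shared between genes. Alternatives covered pseudocount, filter, scaling, weights, GC content, replicate number and leaving out libraries. A few genes that the rule selects are not reported here.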

Additional observations from a re-analysis of the deposited data

How the results depend on the processing

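The comparison was repeated under 22 planned settings and 2 chosen after seeing the data. Against 3719 changed genes (2001 higher, 1718 lower), an adjusted p threshold of 0.01 left 2042 (1124 higher, 918 lower), and array weights, whose fit gave a convergence warning, gave 5666 (2694 lower). Without the 2 libraries at the ends of the within-group spread, day 7 replicate 3 and day 6 replicate 1, 1696 changed (909 higher, 787 lower). Changes of at least 1 log2 unit numbered 450, but 820 with a pseudocount of 0.1, 764 with voom on estimated reads and 328 with a pseudocount of 2. A larger pseudocount shrinks the differences of genes of a few CPM by construction. What else moved these counts was not tested. Leaving out 1 library gave 2568 to 3253 changed genes, 1384 to 1792 higher, 1158 to 1461 lower and 351 to 557 by at least 1 log2 unit.

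The remaining values of these counts stayed within 1.5 times of those reported. No scaling moved the median of all genes by over 0.1, and over all settings 47.4 to 60.3% of changed genes were higher. With the replicate number as a block 3286 genes changed (1797 higher, 1489 lower; 424 by at least 1 log2 unit), and 4749 within the 6 vehicle libraries. Same-numbered day 7 and day 6 libraries correlated in their deviations at 0.24, -0.03 and 0.39, and not every library correlated best with its own number, so the numbers were not taken as pairs.

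Of the 162 changed genes that the rule selected or that are named beside it with a difference, 126 passed in every setting and 0 changed sign. Col1a1, not called (-0.01), turned positive with upper-quartile scaling (0.0444), median centring (0.0474), array weights (0.027), GC correction without and with the block (0.0488), without the 2 end libraries (0.0696), and without day 7 replicate 1 (0.00244) or day 6 replicate 1 (0.0675), within a range of -0.0834 to 0.0675 over single omissions. mt-Co3, also not called, became -2.67e-05 without the 2 end libraries (0.00945 to 0.119 over single omissions). The uncalled Vegfa (-0.03) turned positive with upper-quartile scaling (0.0227), median centring (0.0294), GC correction without and with the block (0.00303), without the 2 end libraries (0.0281), day 7 replicate 1 (0.0206) or day 6 replicate 1 (0.00702), with -0.09998 to 0.0206 over single omissions. The uncalled Rb1 (0.03) turned negative without the 2 end libraries (-0.141), without the 3 libraries that stood apart or day 7 replicate 3 (both -0.11), or without day 6 replicate 2 (-0.095), with -0.11 to 0.191 over single omissions. The uncalled Hk2 (0.07) ran from -0.0613 without day 6 replicate 3 to 0.169. Of 696 list counts, 75 moved by over 1.5 times. Adding 1 before the logarithm understates changes of genes of a few CPM, and genes outside the 13280 tested were not compared at this depth.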

Other observations

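Lists on stress handling and signalling moved without one direction. Of 31 NRF2 targets and antioxidant genes 13 rose and 7 fell (median 0.16), with 6 higher without the 2 libraries at the ends of the within-group spread. Mt2, a metallothionein, measured 120.5, 119 and 129 CPM at day 7 and 55.1, 63.5 and 65.3 CPM at day 6, a difference of 0.99 ± 0.09 (SE, adjusted p = 2.98e-05), and Txnrd1, thioredoxin reductase, measured 57.8, 54.5 and 59.2 CPM at day 7 and 93.7, 95.9 and 94.4 CPM at day 6, a difference of -0.72 ± 0.09 (SE, adjusted p = 0.000165). Among 24 genes of amino acid supply and ATF4 targets 7 rose and 5 fell (median -0.06), and 4 rose without day 6 replicate 1 or both end libraries, with Cth, which makes cysteine, at 0.86 ± 0.09 (SE, adjusted p = 7.52e-05) and the lipoprotein receptor Vldlr at 0.78 ± 0.08 (SE, adjusted p = 8.23e-05). Of 17 endoplasmic reticulum chaperones and related genes 2 rose and 0 fell (median 0.04), Edem1 (0.34 ± 0.08 SE, adjusted p = 0.00803) and Xbp1 (0.37 ± 0.09 SE, adjusted p = 0.0085), with Edem1 at 0.35 (adjusted p = 0.065) without the 2 end libraries. Of 17 heat shock chaperones 3 fell and 0 rose (median -0.20), led by the mitochondrial chaperonin Hspd1 (-0.50 ± 0.08 SE, adjusted p = 0.000843), of whose exon stretches 44.1% were shared with another gene.

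Clock genes rose in 8 and fell in 1 of 16 (median 0.27), and 4 rose without the 2 end libraries and 5 without day 7 replicate 2. Dbp, an output factor of the clock, measured 11.6, 9.77 and 10.5 CPM at day 7 and 4.26, 4.55 and 5.57 CPM at day 6, a difference of 1.01 ± 0.15 (SE, adjusted p = 0.000624), and Bhlhe40, a repressor of the clock, measured 413, 434 and 438 CPM at day 7 and 299, 309.5 and 323 CPM at day 6, a difference of 0.46 ± 0.06 (SE, adjusted p = 0.000167). The hour of collection is not given in the sources used here. Integrins fell in 4 and rose in 1 of 14 (median -0.20): Itgb1, the common beta chain, measured 205, 197 and 194 CPM at day 7 and 260.2, 253 and 257 CPM at day 6, a difference of -0.37 ± 0.06 (SE, adjusted p = 0.000992), and Itgb3, the beta chain of the vitronectin receptor, rose by 0.58 ± 0.09 (SE, adjusted p = 0.00105). Of 11 Wnt genes 5 fell and 2 rose (median -0.18), and 3 fell with median centring or a filter of 5 CPM, with the nuclear factor Lef1 at -1.05 ± 0.17 (SE, adjusted p = 0.001) and the antagonist Dkk2 at -0.61 ± 0.11 (SE, adjusted p = 0.00167). Of 6 Notch genes 2 fell and 1 rose (median -0.33), with the ligand Jag1 at -0.92 ± 0.18 (SE, adjusted p = 0.00291). Prostaglandin and hyaluronan genes rose in 4 and fell in 4 of 14 (median -0.18), and Has2, a hyaluronan synthase, measured 5.48, 5.33 and 3.59 CPM at day 7 and 9.04, 10.8 and 9.25 CPM at day 6, a difference of -0.89 ± 0.14 (SE, adjusted p = 0.000694).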
